A study of Mus musculus with 15 samples.

Results

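The genes described here encode membrane carriers of amino acids and of the neurotransmitters made from them. They were chosen by symbol, as every gene of the solute carrier families Slc1, Slc3, Slc6, Slc7, Slc36, Slc38 and Slc43 whose probe set on the array was paired with that symbol alone. The rule found 61 genes among the 22180 genes tested. Membership rested on the symbol alone, but the probe set with the highest mean over all arrays then stood for each gene. The families were chosen with earlier results of these data known. Slc6a9, a glycine transporter, was not analysed here. Expression was measured in 5 choroid plexus carcinomas, 5 choroid plexus papillomas and 5 samples of normal choroid plexus from different mice of a mixed C57Bl/6 and 129 background, 1 array each. Carcinomas came from mice of the genotype Atoh1-Cre; Myc/Myc; p53fl/fl, papillomas from Atoh1-Cre; Myc/Myc mice without the floxed p53 alleles, and normal tissue from Myc/Myc; p53fl/fl mice without Cre. All groups thus carried the Myc alleles, and Cre was driven by Atoh1 sequence in the tumour mice only. Tumours were taken when animals showed signs of disease, ages are not given in the labels, and carcinoma and papilloma differ in the p53 alleles as well as in tumour type, which cannot be told apart. Papillomas and normal tissue likewise differ in the floxed p53 alleles as well as in Cre.

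The choroid plexus is the epithelium of the brain ventricles that secretes cerebrospinal fluid, and its carriers help to hold most amino acids at a lower concentration in that fluid than in plasma. Amino acid carriers fall into uptake systems driven by sodium (Slc1, Slc6, Slc38) or protons (Slc36), facilitators (Slc43, the cationic branch of Slc7) and exchangers. The exchangers of Slc7 are light chains that reach the cell surface bound to a heavy chain of Slc3. Dividing cells draw on these carriers for protein synthesis, and amino acid shortage raises several of their transcripts through the transcription factor Atf4.

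Values are on the log2 scale of RMA, a summary of the probes of a set, so a difference of 1 is a factor of 2. Differences between groups were tested with limma across all 22180 genes, with Benjamini-Hochberg adjusted p-values over all of them, and "called" means an adjusted p under 0.05. Means are given ± SD with n = 5 arrays a group, and differences with their standard error (SE). The study's design text says that samples came from different mice. The median of the log2 values was 6.79 to 6.90 per array. Of the 61 transporter genes, 15 were below the median of all values (6.84) in every group and none of these was called. The median SD over the 61 genes was 0.22 in carcinoma, 0.18 in papilloma and 0.13 in normal tissue, against 0.19, 0.15 and 0.12 over all genes. The labelled tissue carried its defining transcripts: the mean of 11 choroid plexus epithelial markers was 12.29 to 12.72 in carcinomas, 12.50 to 12.74 in papillomas and 13.00 to 13.07 in normal tissue. Papillomas 2 and 4 stood apart, with a mean over 13 neuron markers of 9.35 and 8.53 against 7.28 to 7.51 in the other 3 papillomas. Normal arrays 2 to 5 had Xist, the X-inactivation transcript, at 10.69 to 12.48 together with a mean of 3 Y-linked transcripts of 7.72 to 9.74, a combination no tumour array showed. The labels do not say whether tissue of several animals was pooled, and these values put 1 animal per array in doubt for those 4 normal arrays.

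Carcinomas differed from normal choroid plexus by the near loss of Slc7a10, by lower Slc7a11, Slc7a8 and GABA transporter transcripts, and by higher Slc1a5, Slc1a4 and Slc7a6. Of the 61 genes, 10 were higher and 13 lower in carcinoma than in normal tissue, that is 16.4% and 21.3%, where 18.7% of all genes tested were higher and 19.2% lower. In papilloma against normal tissue 7 were higher and 12 lower (11.5% and 19.7%), where 17.0% of all genes were higher and 16.3% lower. Between the tumour types 5 genes were higher in carcinoma and 0 lower, where 6.24% of all genes were higher and 5.17% lower. The 0 is a limma count, and at an unadjusted p under 0.05 it was 4 genes lower against 9 higher. Shares of called genes among the transporters were thus near those of all genes for carcinoma against normal, and their median differences were -0.04, -0.05 and 0.01 for the 3 comparisons, beside -0.02, 0.01 and -0.03 over all genes. The comparisons with normal tissue share the normal arrays. In all, 25 of the 61 genes were called in at least 1 comparison and 36 in none.

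**Figure D1:**
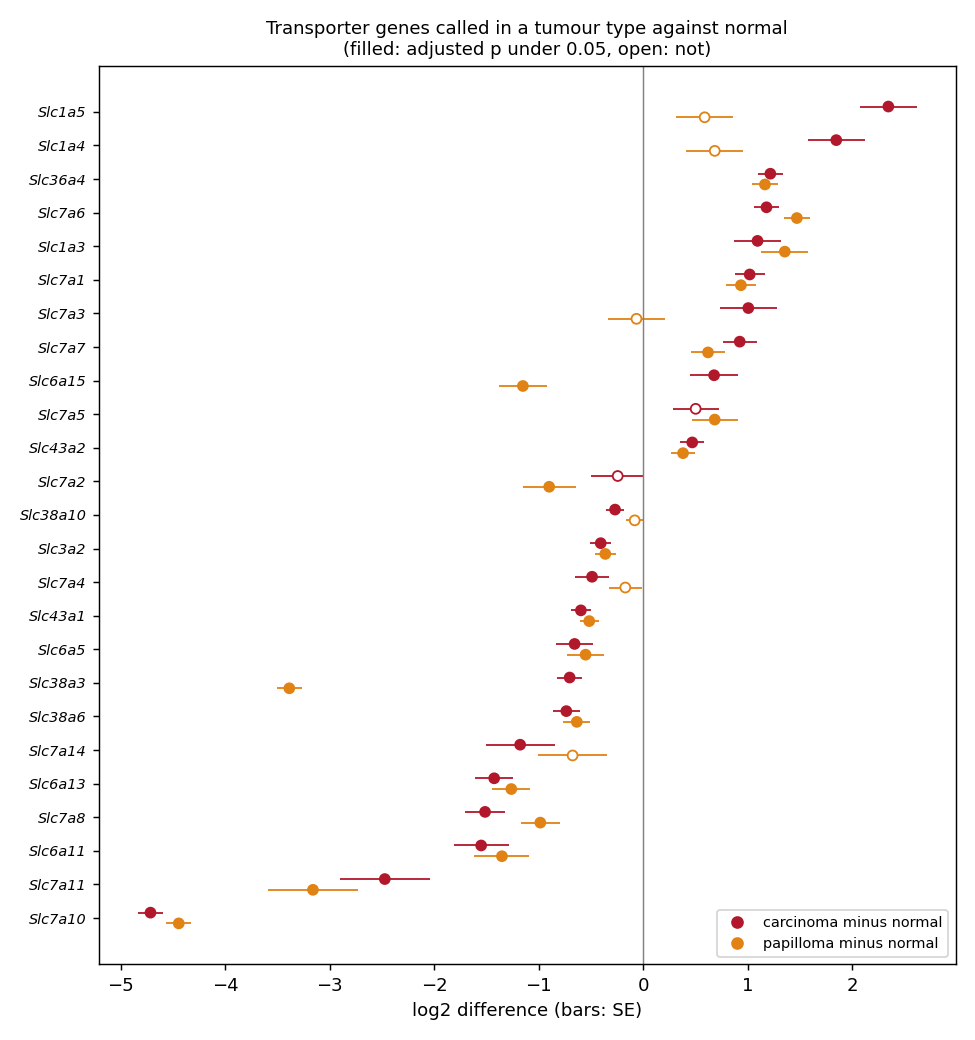
Log2 difference from normal choroid plexus (x axis, bars are SE) of the 25 transporter genes called in carcinoma or papilloma against normal tissue (y axis, ordered by the carcinoma difference), carcinoma in red and papilloma in orange, n = 5 arrays a group. Filled points passed an adjusted p of 0.05. Slc7a10 lies at -4.71 and -4.44, and Slc38a3 and Slc6a15 are the genes whose paired points lie farthest apart.

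Slc7a10, the light chain of a sodium-independent exchanger of small neutral amino acids that also carries D-serine, fell more than any other transporter gene in each tumour type. It measured 7.72, 7.18, 7.70, 7.31 and 6.98 in the carcinomas, 7.61, 7.68, 7.65, 7.64 and 7.66 in the papillomas, and 12.06, 12.07, 12.23, 12.11 and 11.98 in normal tissue. Every tumour array was more than 4 log2 units below every normal array. The difference was -4.71 in carcinoma (SE 0.12, a 26.2-fold lower value, limma adjusted p = 1.46e-12) and -4.44 in papilloma (SE 0.12, 21.8-fold, adjusted p = 2e-12). The tumour values were not far above the array median, where RMA compresses differences, so these folds are approximate. Carcinoma and papilloma differed by -0.27 (95% interval -0.52 to -0.02, adjusted p = 0.173). Epithelial markers fell less in the same arrays, with median differences of -0.55 in carcinoma and -0.36 in papilloma. In carcinoma 7 of 11 were lower (63.6%, against 19.2% of all genes) and in papilloma 6 of 11 (54.5%, against 16.3%). Multiciliated cell markers fell in 10 of 11 cases in each tumour type (90.9%, against 19.2% and 16.3%). Their list mean was 7.19 to 8.40 in carcinomas and 7.17 to 7.39 in papillomas, against 10.42 to 10.60 in normal tissue. Their part in the fall of Slc7a10 was not tested. In these bulk samples fewer cells of a type and less RNA per cell cannot be told apart.

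Slc7a11, the light chain of the cystine-glutamate exchanger that supplies cysteine for glutathione, fell next most among the light chains. It measured 7.56, 7.70, 6.72, 6.94 and 9.42 in the carcinomas, 6.27, 8.16, 7.28, 6.47 and 6.74 in the papillomas, and 10.46, 9.88, 9.98, 10.26 and 10.13 in normal tissue. Carcinoma 5 came near the normal range and papilloma 2 was the highest papilloma, but no tumour array reached a normal one. The differences were -2.47 in carcinoma (SE 0.43, adjusted p = 0.000228) and -3.16 in papilloma (SE 0.43, adjusted p = 2.65e-05). Carcinoma 3 and papillomas 1, 4 and 5 were below the median of all values, where RMA compresses differences, so no fold is given. Its dimmer probe set ran the same way, at 4.83 ± 0.59 in carcinoma, 4.55 ± 0.28 in papilloma and 5.96 ± 0.36 in normal tissue. The promoters of Slc7a10 and Slc7a11 are shown because these genes had the greatest falls of the light chains. They come from RefSeq (GRCm38.p6) and run from 250 bases before the start of transcription to 20 after it. Capitals mark matches on either strand to TGATGNAA, the composite site of Atf4 with a C/EBP factor. Slc7a11 (chr3:50443594-50443863, minus strand) has 2 of them, at -66 to -59 and -47 to -40, and Slc7a10 (chr7:35186135-35186404, plus strand) has none in this window.
Slc7a11: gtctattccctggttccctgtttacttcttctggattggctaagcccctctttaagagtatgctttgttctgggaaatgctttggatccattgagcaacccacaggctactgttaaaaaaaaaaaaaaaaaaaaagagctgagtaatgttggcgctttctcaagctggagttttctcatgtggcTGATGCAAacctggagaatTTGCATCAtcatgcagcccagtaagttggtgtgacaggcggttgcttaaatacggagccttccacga
Slc7a10: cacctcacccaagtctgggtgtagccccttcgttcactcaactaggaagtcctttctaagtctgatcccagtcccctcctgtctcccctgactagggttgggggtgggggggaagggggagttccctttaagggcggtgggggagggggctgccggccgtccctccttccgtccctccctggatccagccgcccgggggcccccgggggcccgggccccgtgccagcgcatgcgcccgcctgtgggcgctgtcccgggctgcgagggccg

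Among the other light chains, Slc7a8, an exchanger of large neutral amino acids found on the basolateral side of epithelia, fell in each tumour type. It measured 10.54, 10.31, 10.86, 11.41 and 10.90 in the carcinomas, 11.29, 10.75, 11.76, 11.34 and 11.52 in the papillomas, and 12.23, 12.28, 12.28, 12.35 and 12.43 in normal tissue. All tumour arrays lay below all normal arrays. The differences were -1.51 in carcinoma (SE 0.19, adjusted p = 8.16e-06) and -0.98 in papilloma (SE 0.19, adjusted p = 0.000614). Carcinoma against papilloma, at -0.53 (95% interval -0.93 to -0.13), was not called (adjusted p = 0.086) but was called without carcinoma 4 (-0.68, adjusted p = 0.0148) or papilloma 2 (-0.67, adjusted p = 0.0233).

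Slc7a6 and Slc7a7, exchangers of cationic for neutral amino acids with sodium, rose. Slc7a6 measured 11.19, 11.85, 11.22, 11.13 and 11.46 in the carcinomas, 11.87, 11.47, 11.76, 11.60 and 11.60 in the papillomas, and 10.14, 10.14, 10.13, 10.16 and 10.38 in normal tissue. The groups did not overlap with normal tissue, and the rise was 1.18 in carcinoma (SE 0.12, adjusted p = 1.31e-06) and 1.47 in papilloma (SE 0.12, adjusted p = 1.42e-07). Slc7a7 averaged 8.44 ± 0.43 in carcinoma, 8.14 ± 0.21 in papilloma and 7.52 ± 0.10 in normal tissue. It rose by 0.92 in carcinoma (SE 0.16, adjusted p = 0.000278) and by 0.62 in papilloma (SE 0.16, adjusted p = 0.00756). Macrophages express Slc7a7, and of 12 macrophage markers 1 was higher in carcinoma and 0 in papilloma (8.33% and 0%, against 18.7% and 17.0% of all genes). Their list mean was 7.65 to 8.70 in carcinomas, 7.71 to 7.82 in papillomas and 7.75 to 8.02 in normal tissue. Carcinomas 2 and 4 were at 8.37 and 8.70, and the other carcinomas at 7.65 to 7.81. The part of macrophages in the rise of Slc7a7 was not tested.

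Slc7a5, the main importer of leucine and other large neutral amino acids in dividing cells, measured 11.73, 11.90, 11.75, 11.27 and 12.84 in the carcinomas, 12.53, 11.81, 12.11, 11.99 and 11.96 in the papillomas, and 11.10, 11.35, 11.57, 11.39 and 11.56 in normal tissue. Papillomas lay above all normal arrays and carcinoma 4 lay within the normal range. Slc7a5 rose by 0.69 in papilloma (SE 0.22, adjusted p = 0.0243), a call that ended without papilloma 1 (0.57, adjusted p = 0.0688) or normal 1 (0.61, adjusted p = 0.0641). In carcinoma it differed by 0.50 (SE 0.22, adjusted p = 0.0877), and was called without carcinoma 4 (0.66, adjusted p = 0.0191). Its heavy chain Slc3a2, which also serves Slc7a6, Slc7a7, Slc7a8, Slc7a10 and Slc7a11, averaged 12.67 ± 0.18 in carcinoma, 12.71 ± 0.18 in papilloma and 13.07 ± 0.08 in normal tissue. It fell by 0.41 on the log2 scale in carcinoma (SE 0.10, adjusted p = 0.00357) and by 0.36 in papilloma (SE 0.10, adjusted p = 0.00898). The papilloma call ended without papillomas 2 and 4 (-0.26, adjusted p = 0.0898). The other heavy chain, Slc3a1, and its partner Slc7a9 were near the array median or below it and were not called, as were Slc7a12, Slc7a13 and Slc7a15.

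**Figure D2:**
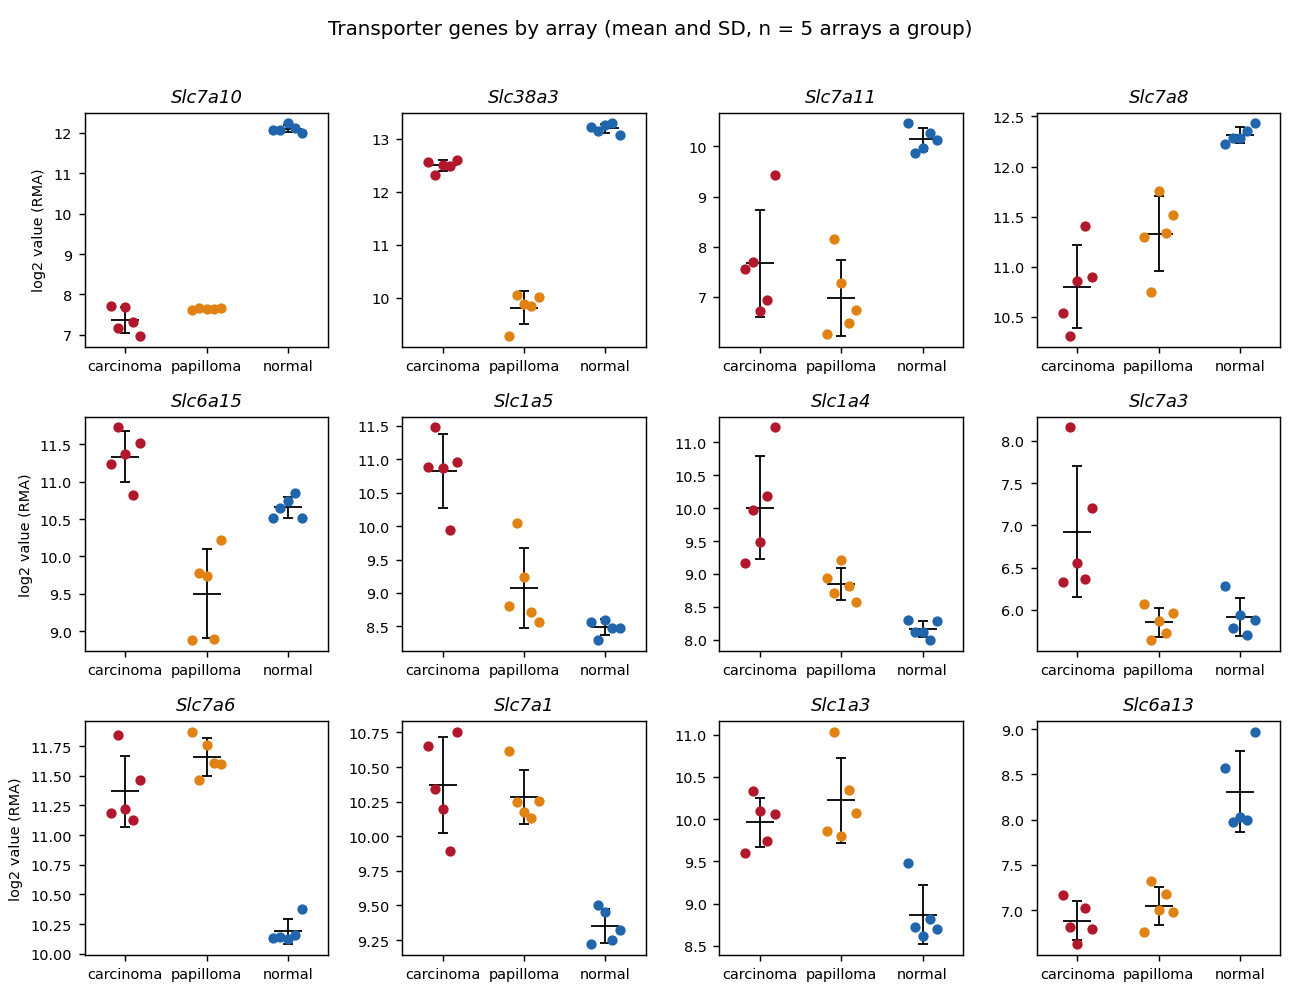
Log2 value (y axis, RMA) of 12 transporter genes in each of the 15 arrays, 1 panel per gene, with carcinomas, papillomas and normal tissue from left to right. Points are arrays, the dash is the mean and bars are SD (n = 5). Slc7a10 is between 6.98 and 7.72 in all tumours and near 12 in normal tissue, Slc38a3 is lowest in papillomas, and Slc1a4 and Slc7a3 each spread more widely in carcinomas than in the other groups.

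In the cationic branch of Slc7, whose members import arginine and lysine, Slc7a1 rose and the others moved apart. Slc7a1 measured 10.65, 10.34, 10.20, 9.89 and 10.76 in the carcinomas, 10.62, 10.24, 10.18, 10.13 and 10.26 in the papillomas, and 9.22, 9.50, 9.45, 9.25 and 9.32 in normal tissue. No tumour array overlapped the normal ones, with a rise of 1.02 in carcinoma (SE 0.14, adjusted p = 2.8e-05) and 0.94 in papilloma (SE 0.14, adjusted p = 7.93e-05). Slc7a1 is also a transporter of brain endothelium. Of 12 endothelial markers 8 rose and 0 fell in carcinoma (66.7% and 0%, against 18.7% and 19.2% of all genes). In papilloma 7 rose and 1 fell (58.3% and 8.33%, against 17.0% and 16.3%). Their list means were 8.67 to 9.09 in carcinomas, 8.44 to 8.79 in papillomas and 7.97 to 8.44 in normal tissue. Their part in the rise of Slc7a1 was not tested.

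Slc7a3 was at 6.33, 8.16, 6.55, 6.37 and 7.20 in the carcinomas, 6.07, 5.64, 5.86, 5.72 and 5.96 in the papillomas, and 6.28, 5.78, 5.93, 5.70 and 5.88 in normal tissue. The carcinomas lay above the rest, but 3 of them by little, and carcinomas 2 and 5 carried most of the difference. It rose by 1.01 against normal tissue (SE 0.27, adjusted p = 0.00726), and did not differ detectably in papilloma (-0.06, 95% interval -0.64 to 0.51). Slc7a2 measured 7.24, 7.43, 7.22, 7.36 and 8.86 in the carcinomas, 7.06, 7.26, 6.88, 7.01 and 6.62 in the papillomas, and 8.11, 8.0, 7.70, 7.60 and 7.92 in normal tissue. It fell by 0.90 on the log2 scale in papilloma (SE 0.25, adjusted p = 0.0109). Carcinoma 5 was above every normal array while the other 4 carcinomas were below them, so the carcinoma difference of -0.24 (adjusted p = 0.504) became -0.55 without carcinoma 5 (adjusted p = 0.0027). Slc7a4, whose transport activity is not established, fell by 0.49 in carcinoma (SE 0.16, adjusted p = 0.0227), and the call ended without carcinoma 1 or 2 or normal 1 (-0.46 to -0.35, adjusted p = 0.05 to 0.0545).

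In the Slc1 family the neutral amino acid exchangers rose most in carcinoma. Slc1a5, a glutamine carrier of dividing cells, measured 10.89, 11.48, 10.88, 9.95 and 10.96 in the carcinomas, 8.81, 10.05, 9.23, 8.71 and 8.56 in the papillomas, and 8.57, 8.29, 8.60, 8.48 and 8.47 in normal tissue. All carcinomas were above all normal arrays, while papilloma 2 reached the lowest carcinoma. The rise in carcinoma was 2.35 (SE 0.27, 5.09-fold, adjusted p = 3.65e-06), and the papilloma difference was 0.59 (SE 0.27, adjusted p = 0.114). The dimmer of its probe sets gave 8.30 ± 0.16 in carcinoma, 7.65 ± 0.19 in papilloma and 7.52 ± 0.07 in normal tissue, and the mean of both sets reduced the carcinoma difference to 1.56 (adjusted p = 2.36e-06). Markers of dividing cells rose in 9 of 9 cases in carcinoma and in papilloma, where 18.7% and 17.0% of all genes rose. They were higher in carcinoma than in papilloma in 9 of 9, against 6.24% of all genes. Their list mean was 9.48 to 10.80 in carcinomas, 8.33 to 8.83 in papillomas and 6.87 to 7.03 in normal tissue, and their part in the rise of Slc1a5 was not tested.

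Slc1a4, an exchanger of alanine, serine and cysteine, measured 9.17, 9.97, 9.49, 10.18 and 11.23 in the carcinomas, 8.94, 8.70, 9.20, 8.81 and 8.57 in the papillomas, and 8.29, 8.12, 8.11, 7.99 and 8.28 in normal tissue. It rose by 1.85 in carcinoma (SE 0.27, 3.6-fold, adjusted p = 4.83e-05). All papillomas were above all normal arrays too, but the difference of 0.69 (SE 0.27) was not called with the spread shared by all groups (adjusted p = 0.0679) and was called when the carcinomas were left out of the fit (adjusted p = 0.00045).

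The Slc1a4 promoter (chr11:20332694-20332963, minus strand) is shown for its match to TGATGNAA, in capitals, which spans the start of transcription from -4 to 4 on the reverse strand.
Slc1a4: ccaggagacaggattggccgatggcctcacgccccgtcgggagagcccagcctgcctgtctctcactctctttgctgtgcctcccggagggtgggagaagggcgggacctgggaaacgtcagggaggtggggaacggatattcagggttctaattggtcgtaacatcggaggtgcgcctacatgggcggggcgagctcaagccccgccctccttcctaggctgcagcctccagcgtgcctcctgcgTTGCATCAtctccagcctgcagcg

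The glutamate transporters of Slc1 clear the transmitter from the extracellular space. Slc1a3, the glutamate transporter of radial and astroglia, measured 9.60, 10.33, 10.09, 9.73 and 10.06 in the carcinomas, 9.86, 11.03, 9.80, 10.35 and 10.07 in the papillomas, and 9.48, 8.73, 8.62, 8.82 and 8.70 in normal tissue. Every tumour array was above every normal array, although normal 1 came close. It rose by 1.09 in carcinoma (SE 0.22, adjusted p = 0.000928) and by 1.36 in papilloma (SE 0.22, adjusted p = 0.000164). Of 10 astrocyte markers 1 was higher and 3 lower in carcinoma (10% and 30%, against 18.7% and 19.2% of all genes). In papilloma 1 was higher and 2 lower (10% and 20%, against 17.0% and 16.3%). Papillomas 2 and 4, with the highest astrocyte list means of the papillomas (9.38 and 8.87), were also the highest papillomas for Slc1a3. Its papilloma call held under every alternative run, at differences of 1.04 to 1.51. The part of astroglia in the rise of Slc1a3 was not tested. Slc1a1, Slc1a2, Slc1a6 and Slc1a7 were called in no comparison.

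Slc38a3, a sodium-coupled glutamine transporter that can run in either direction, separated the tumour types. It measured 12.56, 12.32, 12.51, 12.50 and 12.60 in the carcinomas, 9.28, 10.05, 9.89, 9.85 and 10.02 in the papillomas, and 13.22, 13.15, 13.26, 13.30 and 13.08 in normal tissue. The 3 groups did not overlap. It fell by 3.39 on the log2 scale in papilloma (SE 0.12, 10.4-fold lower, adjusted p = 1.66e-11) and by 0.70 in carcinoma (SE 0.12, adjusted p = 0.00018), and carcinoma exceeded papilloma by 2.68 (SE 0.12, 6.42-fold, adjusted p = 4.1e-09). The carcinoma fall is of the size of the median epithelial marker difference given above, and the part of epithelial content in it was not tested. Slc38a6 fell as well, averaging 7.73 ± 0.28 in carcinoma, 7.83 ± 0.22 in papilloma and 8.47 ± 0.13 in normal tissue (-0.73, adjusted p = 0.000283, and -0.63, adjusted p = 0.0012). Slc38a10 fell by 0.27 in carcinoma (SE 0.09, adjusted p = 0.0213). That call ended without carcinoma 2 or 5 (-0.20 and -0.22, adjusted p = 0.0562 and 0.0565), at a common median (-0.23, adjusted p = 0.0571), with only carcinoma and normal arrays in the fit (adjusted p = 0.0519) and when probe sets were averaged (-0.15, adjusted p = 0.0739).

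The other 8 genes of Slc38 were called in no comparison. They include the glutamine importers Slc38a1, at 12.01 ± 0.08 in carcinoma, 12.00 ± 0.07 in papilloma and 11.88 ± 0.02 in normal tissue, and Slc38a2, at 12.09 ± 0.42, 12.09 ± 0.20 and 12.07 ± 0.12 in the same groups. Slc38a9, a lysosomal arginine sensor, differed by -0.04 in carcinoma (95% interval -0.40 to 0.33) and by 0.11 in papilloma (95% interval -0.25 to 0.48).

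In the amino acid branch of Slc6, Slc6a15 moved in opposite directions. Slc6a15 carries branched-chain amino acids and proline into neurons. It measured 11.24, 11.73, 11.37, 10.82 and 11.52 in the carcinomas, 8.88, 9.78, 9.73, 8.90 and 10.22 in the papillomas, and 10.51, 10.65, 10.74, 10.85 and 10.52 in normal tissue. All papillomas were below all normal arrays, and 4 of the 5 carcinomas were above them. It fell by 1.15 on the log2 scale in papilloma (SE 0.23, adjusted p = 0.000927) and rose by 0.68 in carcinoma (SE 0.23, adjusted p = 0.0286). The carcinoma call ended without carcinoma 2, 3 or 5 or normal 1, 2 or 5 (0.58 to 0.68, adjusted p = 0.0507 to 0.0762). Carcinoma exceeded papilloma by 1.83 (SE 0.23, adjusted p = 0.000143).

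Slc6a20a, the proline and betaine carrier of epithelia and meninges, measured 12.75, 12.59, 12.98, 13.00 and 13.15 in the carcinomas, 12.59, 11.92, 12.65, 12.78 and 11.14 in the papillomas, and 12.77, 12.94, 12.87, 12.56 and 12.68 in normal tissue. Papillomas 2 and 5 were below all other arrays, and no comparison was called (adjusted p = 0.732 and 0.102 for carcinoma and papilloma against normal tissue, and 0.0894 between the tumours). Its neighbour and close copy Slc6a20b stayed at 6.61 to 7.08 in all arrays, and whether probes are shared between them was not tested. Slc6a17, a transporter of synaptic vesicles, ranged from 8.77 to 10.99 with wide spread in every group and was not called. Slc6a7, Slc6a14, Slc6a16, Slc6a18, Slc6a19 and Slc6a21 differed by at most 0.31 in size in any comparison and none was called.

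Of the transporters of neurotransmitters, osmolytes and creatine in Slc6, 3 of 9 (33.3%) fell in each comparison with normal tissue and 0 rose, where 19.2% of all genes fell and 18.7% rose in carcinoma, and 16.3% fell and 17.0% rose in papilloma. At an unadjusted limma p under 0.05 the count of rises was 0 as well. Slc6a11, a GABA transporter of astrocytes, measured 7.35, 7.77, 7.13, 7.52 and 6.88 in the carcinomas, 7.26, 8.31, 7.08, 7.68 and 7.31 in the papillomas, and 9.78, 8.91, 8.63, 8.46 and 8.62 in normal tissue. It fell by 1.55 in carcinoma (SE 0.26, adjusted p = 0.000176) and by 1.35 in papilloma (SE 0.26, adjusted p = 0.000713). Slc6a13, a GABA and taurine transporter of the meninges, averaged 6.88 ± 0.21 in carcinoma, 7.05 ± 0.21 in papilloma and 8.31 ± 0.45 in normal tissue. It fell by 1.43 in carcinoma (SE 0.18, adjusted p = 9.96e-06) and by 1.26 in papilloma (SE 0.18, adjusted p = 4.26e-05), to values near the array median.

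Meningeal and fibroblast markers moved the same way. In carcinoma 8 of 11 were lower (72.7%, against 19.2% of all genes). In papilloma 8 of 11 were lower and 1 higher (72.7% and 9.09%, against 16.3% and 17.0%). The list mean of these markers was 8.43 to 8.79 in carcinomas, 8.36 to 8.84 in papillomas and 9.91 to 10.16 in normal tissue. Their part in the fall of Slc6a13 was not tested. Slc6a5, the glycine transporter of glycinergic neurons, averaged 6.96 ± 0.29 in carcinoma, 7.07 ± 0.31 in papilloma and 7.62 ± 0.29 in normal tissue. It fell by 0.66 in carcinoma (SE 0.17, adjusted p = 0.00645) and by 0.55 in papilloma (SE 0.17, adjusted p = 0.0214). The papilloma call ended without papilloma 1 or 5 or normal 1 (-0.49 to -0.43, adjusted p = 0.0562 to 0.0624).

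Slc6a6, the taurine transporter, measured 9.09, 11.12, 8.87, 8.84 and 8.06 in the carcinomas, 7.91, 8.85, 7.86, 8.15 and 8.03 in the papillomas, and 9.05, 9.03, 9.13, 8.85 and 9.01 in normal tissue. Carcinoma 2 stood more than 2 log2 units above the other carcinomas. The papillomas were lower than normal tissue by 0.85 (SE 0.40), which was not called (adjusted p = 0.117) with the spread of the carcinomas included and was called without carcinoma 2 (adjusted p = 0.00301). The creatine transporter Slc6a8 averaged 11.98 ± 0.24 in carcinoma, 12.10 ± 0.06 in papilloma and 11.98 ± 0.04 in normal tissue and was not called. The transporters of noradrenaline (Slc6a2), dopamine (Slc6a3), serotonin (Slc6a4) and betaine (Slc6a12) were near or below the array median and were not called.

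The proton-coupled carrier Slc36a4, which has high affinity for proline and tryptophan, gave opposite answers from its 2 probe sets. The brighter set (17514867) measured 11.89, 12.28, 12.00, 11.90 and 11.69 in the carcinomas, 11.98, 12.08, 11.55, 12.04 and 11.85 in the papillomas, and 10.88, 10.62, 10.84, 10.84 and 10.49 in normal tissue. It rose by 1.22 in carcinoma (SE 0.12, adjusted p = 8.53e-07) and by 1.17 in papilloma (SE 0.12, adjusted p = 1.64e-06). The dimmer set (17514853) measured 9.68, 9.40, 9.63, 10.17 and 9.40 in the carcinomas, 9.87, 9.86, 9.74, 9.39 and 9.82 in the papillomas, and 10.71, 10.73, 10.69, 10.81 and 10.62 in normal tissue, which is 1.06 lower in carcinoma and 0.97 lower in papilloma. Tumour and normal arrays did not overlap in either set. The mean of the sets removed both calls (0.08, adjusted p = 0.558, and 0.10, adjusted p = 0.503), so no direction can be given for the gene as a whole. The probe positions were not analysed here. Slc36a1, a lysosomal carrier, and Slc36a2 and Slc36a3 were not called.

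**Figure D3:**
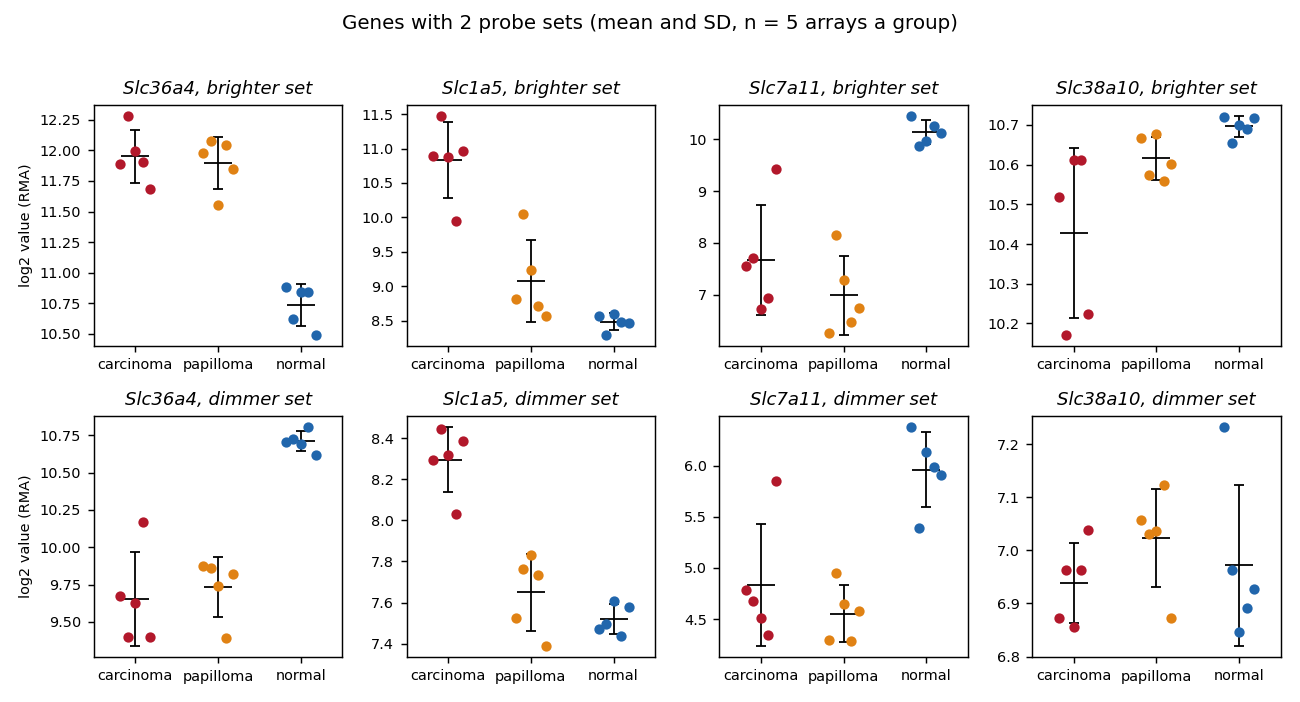
Log2 value (y axis, RMA) by array for the 4 transporter genes with 2 probe sets, brighter set above and dimmer set below, with carcinomas, papillomas and normal tissue from left to right. Points are arrays, the dash is the mean and bars are SD (n = 5). The sets of Slc36a4 move in opposite directions in tumours, those of Slc1a5 and Slc7a11 move the same way, and the dimmer set of Slc38a10 stays between 6.85 and 7.23.

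The Slc43 family holds facilitators of large neutral amino acids. Slc43a1 averaged 6.46 ± 0.10 in carcinoma, 6.54 ± 0.12 in papilloma and 7.06 ± 0.18 in normal tissue, and fell by 0.60 (SE 0.09, adjusted p = 7.7e-05) and 0.52 (SE 0.09, adjusted p = 0.000353) in the tumour types in that order. Its values lie near the array median, where RMA compresses differences. Slc43a2 rose by 0.47 in carcinoma (SE 0.11, adjusted p = 0.00356) and by 0.38 in papilloma (SE 0.11, adjusted p = 0.016), the second call ending without papillomas 2 and 4 (0.30, adjusted p = 0.115). Slc43a3 was not called.

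Set directly against each other, the tumour types differed in 5 transporter genes, each higher in carcinoma: Slc38a3 (2.68), Slc6a15 (1.83), Slc1a5 (1.76), Slc1a4 (1.16) and Slc7a3 (1.07). Slc38a3, Slc6a15 and Slc7a3 showed no overlap between the arrays of the tumour types. The Slc1a5 difference had an SE of 0.27 (adjusted p = 0.000666), and only papilloma 2 reached the carcinoma range. Those of Slc1a4 (SE 0.27, adjusted p = 0.0116) and Slc7a3 (SE 0.27, adjusted p = 0.0176) ended when only carcinoma and papilloma arrays entered the fit (adjusted p = 0.057 and 0.067) and without papillomas 2 and 4 (1.10, adjusted p = 0.0647, and 0.96, adjusted p = 0.101). For Slc6a6, Slc6a20a and Slc7a2 the 95% intervals lay above 0, at 0.20 to 1.88, 0.16 to 1.20 and 0.12 to 1.19, but none passed the adjusted threshold. The other 53 genes differed by -0.53 to 0.69. Among them the interval lay above 0 for Slc6a20b and below 0 for Slc7a6, Slc7a8, Slc7a10 and Slc38a10, and none was called.

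**Figure D4:**
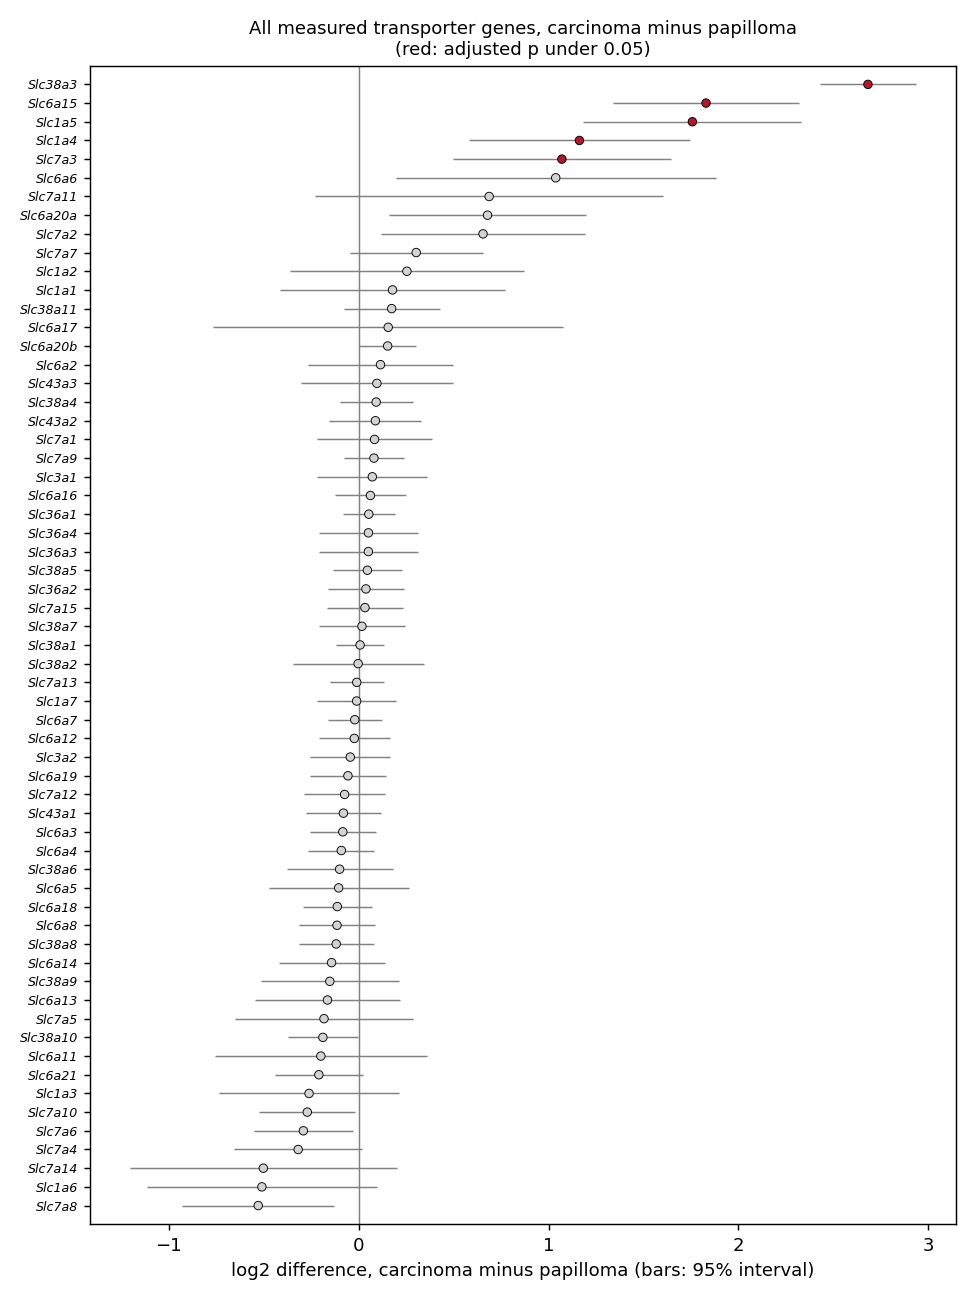
Log2 difference, carcinoma minus papilloma (x axis, bars are 95% intervals, not adjusted for the number of genes), for all 61 transporter genes (y axis, ordered by the difference), n = 5 arrays a group. The 5 genes with an adjusted p under 0.05 are in red and lie at 1.07 to 2.68. The genes below 0 reach -0.53 and none of them was called.

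Several transporters that are typical of neurons and glia were high in papillomas 2 and 4, the arrays with the highest neuron markers among the papillomas. Slc7a14, a lysosomal member of Slc7 found in neurons, measured 6.69, 7.27, 7.12, 7.13 and 6.90 in the carcinomas, 7.19, 8.98, 7.04, 7.89 and 6.53 in the papillomas, and 8.60, 8.09, 7.82, 8.17 and 8.32 in normal tissue. It fell by 1.18 in carcinoma (SE 0.33, adjusted p = 0.00973). In papilloma it differed by -0.67 (adjusted p = 0.141), which became -1.28 without papillomas 2 and 4 (adjusted p = 0.000117). Slc1a6, the glutamate transporter of cerebellar Purkinje cells, was at 8.88 and 7.93 in papillomas 2 and 4 and at 6.87 to 7.37 in the other 13 arrays. Slc1a2, the main glutamate transporter of astrocytes, was at 8.47 and 8.03 in papillomas 2 and 4 and at 6.79 to 6.99 in the other papillomas, against 7.75 to 8.40 in normal tissue. Without those 2 arrays it fell by 1.12 in papilloma (adjusted p = 0.000498), against -0.59 with them (adjusted p = 0.143). Neuron markers were lower in 6 of 13 cases in carcinoma (46.2%, against 19.2% of all genes). In papilloma 2 of 13 were lower (15.4%, near the 16.3% of all genes). Their list means were 7.16 to 7.69 in carcinomas and 8.18 to 8.71 in normal tissue. Oligodendrocyte markers were lower in 8 of 11 cases in carcinoma (72.7%, against 19.2%) and 4 of 11 in papilloma (36.4%, against 16.3%). Pituitary markers were lower in 5 of 6 in each tumour type (83.3%, against 19.2% and 16.3%). The part of neural tissue collected with the samples in these differences was not tested.

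**Figure D5:**
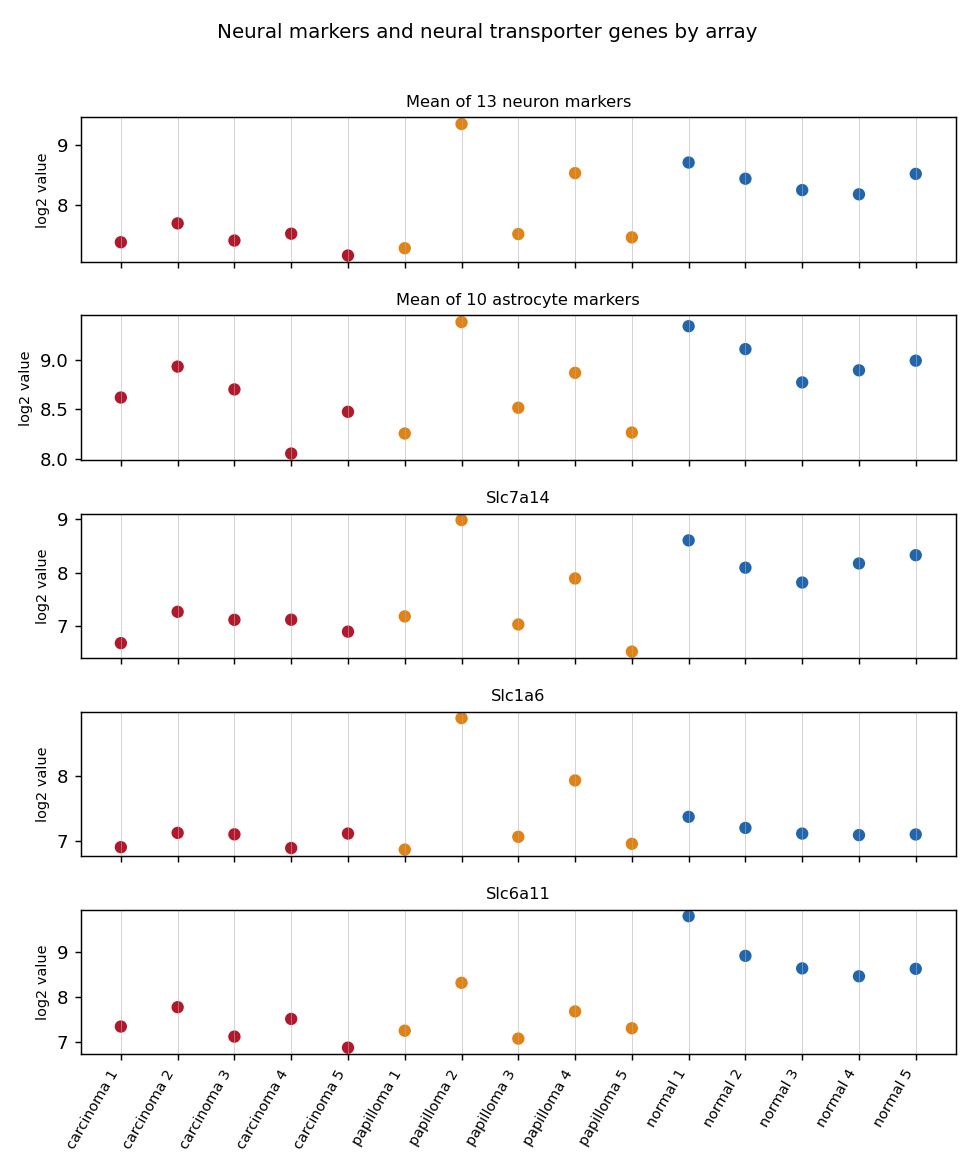
Log2 value (y axis) in each of the 15 arrays (x axis) of the mean of 13 neuron markers, the mean of 10 astrocyte markers, Slc7a14, Slc1a6 and Slc6a11, with carcinomas in red, papillomas in orange and normal tissue in blue. Papillomas 2 and 4 are the highest papillomas in all 5 panels. Slc1a6 is above 7.4 in those 2 arrays alone.

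Transporters of amino acids and transmitters outside the 7 families numbered 26, of which 6 rose and 6 fell in carcinoma (23.1% each way, against 18.7% and 19.2% of all genes), and 3 rose and 3 fell in papilloma (11.5% each way, against 17.0% and 16.3%). Slc17a8, a vesicular glutamate transporter, rose by 2.58 in carcinoma (SE 0.47, adjusted p = 0.000352) and 3.73 in papilloma (SE 0.47, adjusted p = 1.24e-05). Carcinoma 5, at 7.76, was level with the highest normal array (7.76), while the other carcinomas were at 10.06 to 11.19. Slc16a10, a facilitator of aromatic amino acids, averaged 8.46 ± 1.30 in carcinoma, 6.95 ± 0.21 in papilloma and 6.50 ± 0.16 in normal tissue, a rise of 1.96 in carcinoma (SE 0.43, adjusted p = 0.00163). Slc25a44, a mitochondrial carrier of branched-chain amino acids, rose by 0.86 and 0.73 (adjusted p = 5.49e-08 and 3.86e-07 in carcinoma and papilloma). The peptide transporter Slc15a2, which is known from the choroid plexus, fell by 1.36 on the log2 scale in carcinoma (adjusted p = 0.000517) and by 0.74 in papilloma (adjusted p = 0.0379). Of the 5 measured partner proteins 3 fell in each tumour type (60%, against 19.2% and 16.3% of all genes). The 1 that rose in carcinoma (20%, against 18.7%) was the cell surface glycoprotein Cd44 (0.31, adjusted p = 0.00332). Cltrn, which traffics Slc6 amino acid carriers to the surface of kidney cells, averaged 7.90 in carcinoma, 7.0 in papilloma and 9.90 in normal tissue (-1.99, adjusted p = 4.03e-05, and -2.89, adjusted p = 9.69e-07).

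Genes of the amino acid response through Atf4 mostly rose in carcinoma. There 20 of 28 rose and 1 fell (71.4% and 3.57%, against 18.7% and 19.2% of all genes). In papilloma 14 rose and 3 fell (50% and 10.7%, against 17.0% and 16.3%). The median differences were 0.62 in carcinoma and 0.44 in papilloma, beside -0.02 and 0.01 over all genes. Aldh18a1, which makes proline precursors, rose by 2.16 in carcinoma (SE 0.08, adjusted p = 2.98e-11) and 1.96 in papilloma (adjusted p = 5.18e-11). The asparagine synthetase Asns rose by 2.0 (adjusted p = 8.01e-05) and 1.86 (adjusted p = 0.000196), and the serine synthesis enzyme Psat1 by 2.06 in papilloma (adjusted p = 7.54e-09). Vldlr, a lipoprotein receptor, fell by 1.27 on the log2 scale in carcinoma (adjusted p = 0.000224) and by 1.75 in papilloma (adjusted p = 1.22e-05). The list mean was 9.62 to 10.38 in carcinomas, with carcinoma 5 highest, 9.54 to 9.79 in papillomas and 9.09 to 9.24 in normal tissue. Carcinoma 5 was also the highest carcinoma for Slc1a4, Slc7a1, Slc7a2, Slc7a5, Slc7a7 and Slc7a11. The same held for other transporter genes, such as Slc38a2, Slc38a3, Slc3a2 and Slc6a20a. It did not hold for Slc1a5, Slc7a3, Slc7a6 or Slc6a15, and carcinoma 5 was the lowest carcinoma for the brighter set of Slc36a4. A link between these genes and the Atf4 list was not tested.

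Genes that sense amino acids upstream of the growth kinase complex mTORC1 were measured as well. Of 35, 10 rose and 4 fell in carcinoma (28.6% and 11.4%, against 18.7% and 19.2% of all genes), and 10 rose and 2 fell in papilloma (28.6% and 5.71%, against 17.0% and 16.3%). Their median differences were 0.11 and 0.10, beside -0.02 and 0.01 over all genes. Sesn2, a leucine sensor that is also a p53 target, was in the Atf4 list as well. It rose by 1.53 in papilloma (SE 0.16, adjusted p = 1.31e-06) and by 0.44 in carcinoma (SE 0.16, adjusted p = 0.0377). Its value was 1.09 lower on the log2 scale in carcinoma than in papilloma (-1.09, adjusted p = 0.000397). Castor1, an arginine sensor, fell by 0.61 in carcinoma (adjusted p = 0.00225).

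Among enzymes of transmitters and amino acids, 6 of 34 rose and 11 fell in carcinoma (17.6% and 32.4%, against 18.7% and 19.2% of all genes), and 9 rose and 6 fell in papilloma (26.5% and 17.6%, against 17.0% and 16.3%). Gldc, the glycine decarboxylase of the glycine cleavage system, averaged 10.25 in carcinoma, 7.18 in papilloma and 10.59 in normal tissue. It fell by 3.41 on the log2 scale in papilloma (SE 0.22, adjusted p = 1.03e-08) and exceeded papilloma by 3.07 in carcinoma (SE 0.22, adjusted p = 1.47e-06), beside the Slc38a3 differences of -3.39 and 2.68 in the same comparisons. Gamt, an enzyme of creatine synthesis, rose by 2.53 in carcinoma (adjusted p = 1.71e-09) and 3.12 in papilloma (adjusted p = 1.67e-10). The glutamine synthetase Glul fell by 1.08 on the log2 scale in carcinoma (adjusted p = 2.84e-06) and by 1.15 in papilloma (adjusted p = 1.77e-06). For glutathione synthesis and cystine reduction, the pathway that Slc7a11 feeds, 6 of 15 genes rose and 4 fell in carcinoma (40.0% and 26.7%, against 18.7% and 19.2% of all genes), and 4 rose and 6 fell in papilloma (26.7% and 40.0%, against 17.0% and 16.3%). Ggt5, an enzyme that cleaves extracellular glutathione conjugates, fell by 2.05 on the log2 scale in carcinoma (adjusted p = 2.6e-08) and by 2.69 in papilloma (adjusted p = 1.51e-09), while the thioredoxin reductase Txnrd1 rose by 0.60 (adjusted p = 9.99e-05) and 0.52 (adjusted p = 0.000476).

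Promoters of 44 of the 61 transporter genes were in the RefSeq table, as windows of 300 bases from 250 before to 50 after the start. TGATGNAA was found on either strand in 4 of these 44 genes (9.09%), against 3.92% of the 16918 tested genes with a promoter there. The 4 were Slc1a4, Slc7a7, Slc7a11 and Slc6a21. Of the first 3, Slc1a4 and Slc7a7 rose and Slc7a11 fell in carcinoma. CACGTG, the palindromic E-box that Myc binds with Max, was found in 9 of 44 (20.5%), against 9.22% of all. By the carcinoma comparison it was in 0 of 7 genes that rose, 2 of 11 that fell and 7 of 26 that were not called. No transporter gene held both motifs, and genes with several starts were counted once if any window held the motif.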

How the data were processed

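Total RNA of 15 snap-frozen mouse tissues was labelled and hybridised to Affymetrix arrays, 1 array per sample. The deposited values are log2 intensities that the authors made with RMA in Affymetrix Expression Console, per the submitters' processing notes, and the sources used here do not give a genome build for the probes. Of 41345 probe sets, 23521 had 1 gene symbol, 1814 several and 16010 none. Genes were named from the platform annotation, and 23328 of the 23521 sets matched RefSeq by Entrez identifier. The brightest set by mean over all arrays stood for a gene, which left 22180 genes, and 4 of the 61 transporter genes had 2 sets. All 15 arrays entered 1 limma model of group means (version 3.58.1, R 4.3.3) with moderated variances (12 residual and 3.35 prior degrees of freedom) and Benjamini-Hochberg adjustment over 22180 genes. The fit was checked on simulated data with the same spread in every group, so this check does not cover the unequal spreads of the real groups. The 5 arrays a group limit the precision. Replicate numbers were checked for pairing: same-numbered arrays correlated at -0.10 to 0.14 in their deviations, 2 of 15 above 0.1, so no block was used. Transporter genes with an adjusted p under 0.05 and a log2 difference of 1 or more were described in full, others by counts, ranges and up to 3 examples per family, or up to 3 per direction for other lists. Genes whose calls moved with single arrays were added after their values were seen. The members, lists and markers were chosen with earlier results of these data known. Alternatives covered array weights, variance trend, only the groups compared, quantile normalization, a common median, dim genes, probe set averaging, chromosome-wide shifts in carcinomas, the replicate block and leaving out each array. Leaving out papillomas 2 and 4 was chosen after seeing the data. Promoters were from RefSeq (GRCm38.p6).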

Additional observations from a re-analysis of the deposited data

Results flagged for a closer look

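Within the 183 sets of 5 values formed by 61 transporter genes in 3 groups, 16 held an array whose gap to the nearest other exceeded 0.71 of the range. Chance alone gives about 1 in 20. In carcinoma the arrays apart were number 2 for Slc36a1 (8.47), number 4 for Slc6a16 (5.88), and number 5 for Slc38a4 (6.09), Slc38a5 (6.39) and Slc7a2 (8.86, against 7.22 to 7.43 in the other carcinomas). In papilloma they were number 1 for Slc38a2 (12.45), Slc38a3 (9.28, against 9.85 to 10.05 in the others) and Slc7a1 (10.62), and number 2 for Slc38a4 (5.52), Slc6a14 (5.53) and Slc6a6 (8.85). In normal tissue they were number 1 for Slc1a3 (9.48), Slc6a19 (6.54) and Slc6a2 (7.69), and number 5 for Slc36a1 (8.85) and Slc7a6 (10.38).

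The differences from normal tissue of 5 genes differed between the tumour types by limma's test of carcinoma minus papilloma: Slc38a3 (2.68), Slc6a15 (1.83), Slc1a5 (1.76), Slc1a4 (1.16) and Slc7a3 (1.07).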

How the results depend on the processing

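Of the 47 calls of transporter genes in the 3 comparisons, 36 held under every alternative run (19 of 23 for carcinoma minus normal, 14 of 19 for papilloma minus normal and 3 of 5 for carcinoma minus papilloma), 11 were lost under at least 1, and none reversed. The lost ones are those given beside Slc36a4, Slc38a10, Slc6a15, Slc7a4, Slc3a2, Slc43a2, Slc6a5, Slc7a5, Slc1a4 and Slc7a3, the first in both comparisons with normal tissue. Slc7a3 was removed by the filter on dim genes and has no value there. Leaving out single arrays gave 9 to 13 higher and 11 to 14 lower transporter genes for carcinoma minus normal (7703 to 8745 of all genes called), 6 to 9 higher and 11 to 14 lower for papilloma minus normal (6703 to 7829), and 5 to 6 higher and 0 to 1 lower for carcinoma minus papilloma (1882 to 3038). Papilloma minus normal had 12 higher genes, not 7, with array quality weights and 12 at a common median. With only the groups compared, carcinoma minus papilloma had 3 higher genes, not 5, and 1329 calls among all genes, not 2530. Without papillomas 2 and 4 that count was 1587. The 1 lower gene in carcinoma minus papilloma was Slc7a8 with the replicate block (-0.53, adjusted p = 0.046), with array quality weights (-0.68, adjusted p = 0.0184) and without papillomas 2 and 4 (-0.72, adjusted p = 0.0359), and Slc7a6 without carcinoma 2 (-0.41, adjusted p = 0.0137). The causes of these changes were not tested. Replicate numbers were not used to pair samples in the main fit, and the weak correlations given above cannot show that none were paired. Signal near the array median limits the size of differences that can be read for dim genes.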

Other observations

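With each autosome's median difference from normal tissue removed from the carcinomas, 3 calls of transporter genes changed, all gained and all on chromosome 8. Slc7a5 rose by 0.62 in carcinoma against normal tissue (adjusted p = 0.0216), against 0.50 as deposited (adjusted p = 0.0877). Slc38a7 rose by 0.37 in the same comparison (adjusted p = 0.00208), against 0.26 as deposited. Slc7a2 was higher in carcinoma than in papilloma by 0.77 (adjusted p = 0.0457), against 0.66 as deposited (adjusted p = 0.115).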
